A study of Homo sapiens with 12 samples.

Results

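The TRIM (tripartite motif) genes encode a family of ubiquitin ligases, and the 45 of them described here were all genes of the table whose symbol is TRIM followed by a number and optional letters, apart from 4 such symbols that are not reported here. The rule used the symbol and no measured value, the table held 22564 genes in all, each symbol had 1 row, and all 45 were protein-coding in the reference annotation. RNA-seq was done on total RNA of A549, an established line of human lung adenocarcinoma cells that had been transfected with a small interfering RNA that targets YTHDC1 (siYTHDC1) or with a scrambled control (siSCR), each at 40 nM for 48 to 72 h. Both groups held 6 libraries and shared the same line and transfection, and the labels do not say whether the libraries came from separate cultures, so a p-value here measures only how these libraries spread. The siRNA sequence is not in the labels. In the nucleus, YTHDC1 binds RNA that carries N6-methyladenosine, and the comparison asked which transcripts differ when it is depleted.

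A TRIM protein carries, in order, a RING finger that recruits a ubiquitin-conjugating (E2) enzyme, one or more B-boxes and a coiled coil through which the proteins pair, followed by a C-terminal domain that binds the substrate. The C-terminal domain divides the family, with PRY-SPRY domains in the largest branch and PHD-bromodomain, NHL, MATH or ARF domains in smaller ones. The family is best known for innate antiviral signalling, where several members are induced by interferon, and for control of p53 and its ligase MDM2. Some members lack the RING finger and are known as adaptors.

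Every value below is from the authors' deposited comparison of both groups, which gives a gene 1 log2 fold change (siYTHDC1 over siSCR), its standard error (SE), a Wald p-value adjusted by Benjamini-Hochberg over all 22564 genes, and its normalized count averaged over the 12 libraries. No value per library was used, so neither the overlap of the groups nor the weight of a single library can be given. A gene was called at the study's limits, an adjusted p under 0.001 together with a log2 fold change over 0.5 in size. YTHDC1 itself was at -1.82 on the log2 scale (SE 0.11), 71.7% lower in siYTHDC1. Of the markers, the epithelial KRT8 and KRT18 had mean normalized counts of 27600 and 14908 and EPCAM 58.4, the leukocyte gene CD68 had 2.62, and the other leukocyte and endothelial markers examined had no row in the table.

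Most TRIM transcripts stayed within these limits. TRIM38 and TRIM13 were called higher and TRIM69 was called lower, which is 3 of 45 members (6.67%), against 1525 of all 22564 genes (6.76%). By direction, 2 of 45 members (4.44%) were called higher, against 3.05% of all genes, and 1 of 45 (2.22%) was called lower, against 3.71%. These shares lie near the background, so the count of called genes is no result about the family. Of the 3, TRIM69 had the largest change, 55% lower in siYTHDC1, and both higher genes lay just beyond the limit. None of the 3 was called by a test of a change larger than 0.5 or after the Wald statistic was divided by its robust spread over all genes (2.14). With 95% intervals around the fold change, 25 of the 45 members (55.6%) lay wholly within 0.5 of 0 in size, 1 lay wholly beyond it (TRIM69) and 19 reached across the limit, while 42.1% of all genes lay wholly within it. Among genes averaging 100 counts or more, it was 80% of the 30 members (24) and 83.3% of all genes, so the gap was not present at matched counts.

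**Figure D1:**
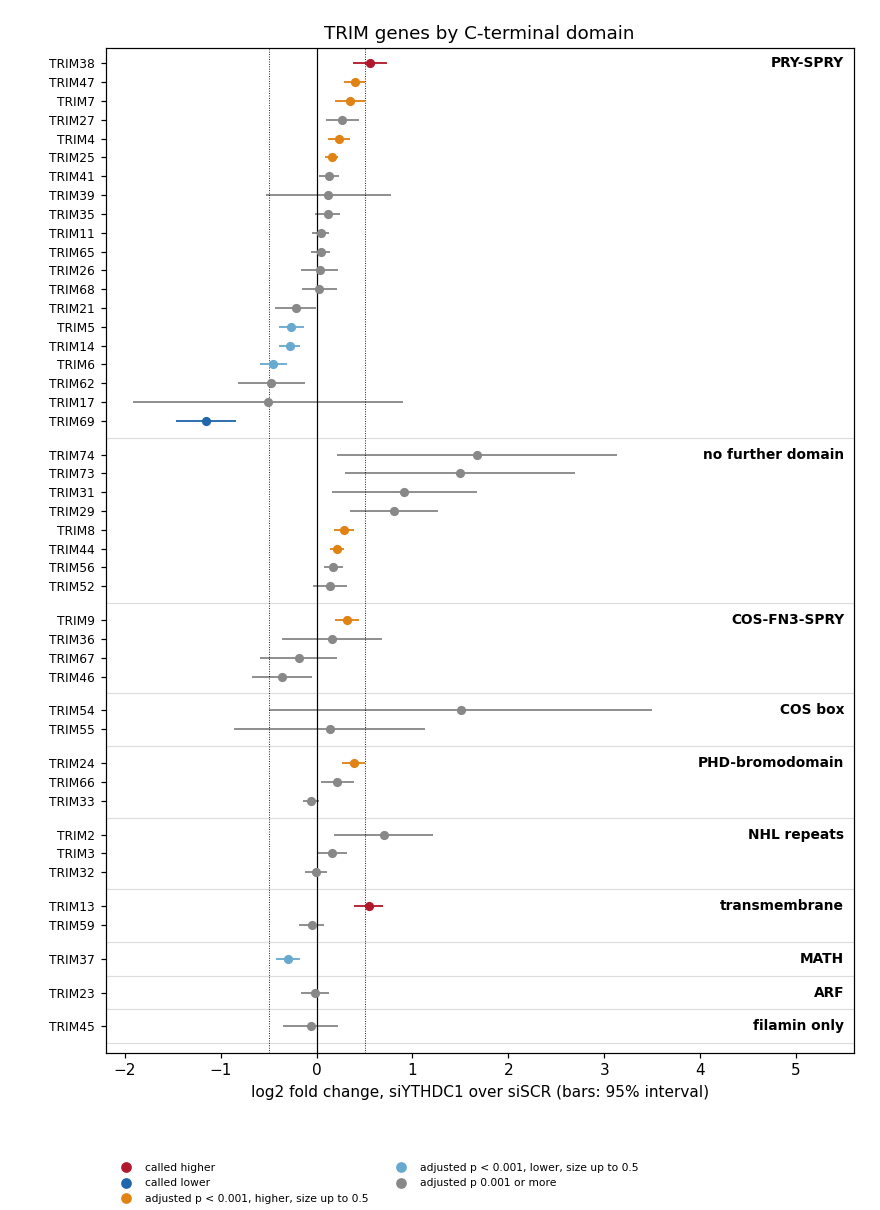
Fold change on the log2 scale, siYTHDC1 over siSCR (x axis), for each of the 45 TRIM genes (y axis), grouped by C-terminal domain and ordered by fold change within a group, with bars for the 95% interval and dotted lines at 0.5 in either direction. TRIM38 (0.56) and TRIM13 (0.54) sit just right of the limit, TRIM69 (-1.15) lies far left of it, and the widest bars belong to genes with few counts.

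TRIM69 encodes a PRY-SPRY ligase that is induced by interferon and is known to restrict rhabdoviruses (ENSG00000185880.8, GRCh37 chromosome 15, 45021186 to 45060027, plus strand). Its log2 fold change was -1.15 with an SE of 0.16 (adjusted p = 7.01e-12), with a 95% interval of -1.46 to -0.84 on the log2 scale. The mean normalized count was 73.4, or 7.92 per kb of merged exons. Of the 15 members with a mean under 100, TRIM69 was the only one called (6.67%), against 5.98% of all genes at that level. No other annotated gene overlapped it. A limit of 1 on the fold change kept the call, while the test of a change larger than 0.5 gave an adjusted p of 0.0013 and the statistic divided by its robust spread gave 0.015.

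TRIM38, a PRY-SPRY ligase known to restrain inflammatory signalling downstream of Toll-like receptors and TNF (ENSG00000112343.8, chromosome 6, 25963030 to 25991459, plus strand), lay at 0.56 on the log2 scale (SE 0.09, adjusted p = 5.68e-09). This corresponds to 47.3% more in siYTHDC1, and the 95% interval on the log2 scale ran between 0.38 and 0.73, across the limit. The gene had a mean normalized count of 327, and 7.85% of its exonic bases were shared with noncoding genes, 1 on each strand. The statistic divided by its robust spread gave an adjusted p of 0.053.

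TRIM13, an ER-anchored ligase of the degradation of misfolded proteins that also acts on MDM2 (ENSG00000204977.5, chromosome 13, 50570024 to 50594617, plus strand), lay at 0.54 on the log2 scale (SE 0.07, adjusted p = 1.05e-11), 45.6% more in siYTHDC1. Its mean normalized count was 354, and the statistic divided by its robust spread gave an adjusted p of 0.016. Of its exonic bases, 21.9% also belonged to other genes, namely 1086 bases to KCNRG on the same strand and 690 to DLEU2 on the opposite strand. Those genes had log2 fold changes of 0.84 (SE 0.52) and 0.05 (SE 0.08), and counting by strand was not stated, so reads of the shared bases cannot be assigned with certainty. Leaving out members with at least 10% of their exons shared, an alternative chosen after the data were seen, left 1 called higher, TRIM38, in place of both.

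More members passed the test of a difference at a smaller size. At an adjusted p under 0.001 without a limit on the fold change, 10 of 45 members (22.2%) were higher in siYTHDC1 and 5 (11.1%) were lower, where all genes gave 9.13% and 9.04%. Because the test reaches further at high counts, the members with a mean of at least 100 were also set beside all genes of that level: 10 of 30 (33.3%) were higher against 16.4%, and 4 of 30 (13.3%) were lower against 15.9%. The median log2 fold change was 0.14 in the 45 members and -0.0023 in all genes, and 30 of the 45 (66.7%) were above 0, against 49.7% of all genes. At a mean of at least 100 the medians were 0.13 and 0.01. These are counts and medians side by side, without a test over the family.

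**Figure D2:**
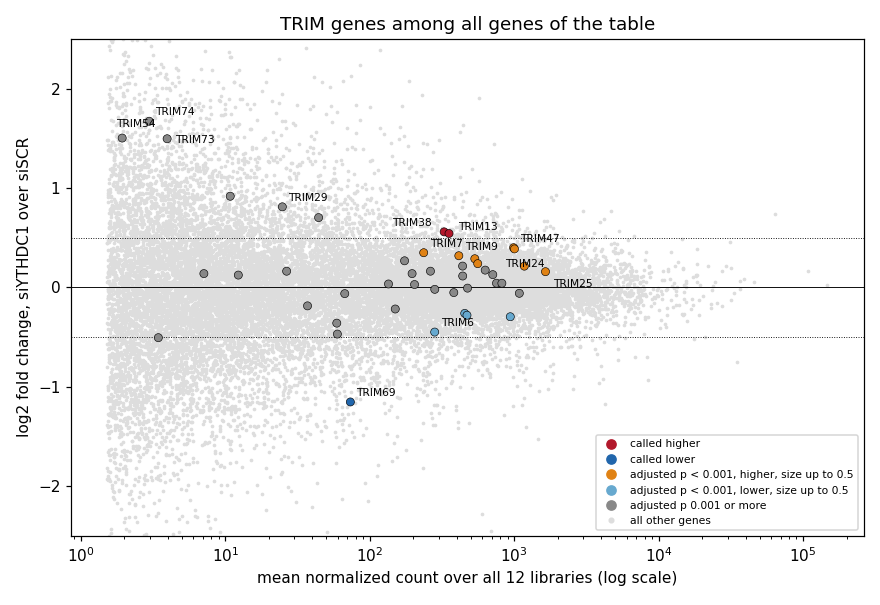
Fold change of each gene on the log2 scale, siYTHDC1 over siSCR (y axis), plotted over its mean normalized count in the 12 libraries (log-scaled x axis), with TRIM genes as outlined circles and all other genes as grey points (111 genes beyond 2.5 in size are not drawn). TRIM73, TRIM74 and TRIM54, the highest of the family on the y axis, lie among its lowest counts, and TRIM69 stands below all other TRIM genes.

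Among the members that passed the p threshold under the limit of 0.5, TRIM47, a PRY-SPRY ligase, had a log2 fold change of 0.40 (SE 0.05) at a mean normalized count of 990, and 51.6% of its exonic bases also lay under a noncoding gene on the opposite strand. TRIM24, which reads histone H3 tails through its PHD finger and bromodomain and is known as a ligase of p53, had 0.39 (SE 0.06) at a count of 1005. TRIM7, which is known to bind glycogenin, had 0.35 (SE 0.08), and TRIM9, a ligase known from netrin signalling in neurons, had 0.32 (SE 0.06). On the lower side TRIM6, known for making unanchored ubiquitin chains in interferon signalling, had -0.45 (SE 0.07, 26.8% lower in siYTHDC1). TRIM6 shared 1158 exonic bases, 29.2% of its total, with the read-through gene TRIM6-TRIM34.

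The genes nearest the limit show how much it decides. Just beyond it in size lay TRIM13 (0.54), TRIM38 (0.56) and TRIM17 (-0.51), and TRIM17 had an SE of 0.72 at a mean normalized count of 3.44, so it was not called. Just within it lay TRIM62 (-0.47, SE 0.18), TRIM6 (-0.45) and TRIM47 (0.40). The members with the highest counts were TRIM25, which ubiquitinates the RNA sensor RIG-I (mean normalized count 1647, log2 fold change 0.16, SE 0.04), TRIM44, which lacks a RING finger (1175, 0.21, SE 0.04), and TRIM33, a regulator of SMAD signalling (1085, -0.06, SE 0.04). TRIM25 and TRIM44 passed the p threshold and TRIM33 did not (adjusted p = 0.31).

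By structure, the PRY-SPRY branch held members that passed in both directions. Of its 20 measured members 1 was called higher and 1 lower, 5 (25%) passed the p threshold as higher and 4 (20%) as lower at any size, and the median was 0.04. All genes gave 9.13% and 9.04% at any size, and 16.4% and 15.9% at a mean of at least 100, and the branches were not compared by a test. Besides TRIM69, TRIM38, TRIM47, TRIM7, TRIM25 and TRIM6, these were TRIM4 (0.24, SE 0.06), TRIM5, which binds retroviral capsids (-0.26, SE 0.07), and TRIM14, an adaptor of the mitochondrial sensor complex without a RING finger (-0.28, SE 0.06). All 8 measured members with no further C-terminal domain had fold changes above 0, where 49.7% of all genes did. Of the 8, 2 passed the p threshold. They were TRIM8 (0.29, SE 0.05, 19.3% of its exonic bases shared with another gene), a regulator of NF-kB signalling, and TRIM44. The others did not pass it. TRIM56 had 0.17 (SE 0.05, adjusted p = 0.0026) at a count of 630. The RING-less TRIM29, known for binding p53, had 0.81 (SE 0.23, adjusted p = 0.0026) at a count of 24.8, and TRIM31 had 0.92 (SE 0.39) at 10.8. TRIM73 and TRIM74 had counts of 3.96 and 2.97, and the interval of TRIM52 included 0. The shared sign of this branch is therefore a description only.

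TRIM73 and TRIM74 are near-identical copies on chromosome 7, so reads of identical sequence cannot be assigned to either with certainty and may not have been counted. The fitted level of TRIM73 in siYTHDC1 was 182% above that in siSCR (log2 SE 0.61) at a mean normalized count of 3.96, and TRIM74 was at 1.67 on the log2 scale (SE 0.75) at 2.97, and neither passed the threshold (adjusted p = 0.046 and 0.073). The muscle ligase gene TRIM54 lay 183% above siSCR, with a log2 SE of 1.02, at a count of 1.93, and its interval included 0.

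Smaller branches held single members that passed. In the PHD-bromodomain branch TRIM24 passed, while its paralogs TRIM33 (-0.06) and TRIM66 (0.21, SE 0.09) did not, and the differences between paralogs were not tested. TRIM37, the only MATH-domain member, known for its part in centriole number and mutated in mulibrey nanism, was 18.5% lower in siYTHDC1 (-0.30, SE 0.06, adjusted p = 2.33e-05). Other genes shared 11.1% of its exonic bases. TRIM9 was the only one to pass of the 4 COS-box members with an FN3 and a SPRY domain, and the axonal microtubule organiser TRIM46 had -0.36 (SE 0.16) at a count of 59.1. The NHL-repeat members TRIM2, TRIM3 and TRIM32, the ARF-domain member TRIM23 and the filamin-domain member TRIM45 did not pass. Of these, TRIM2, a ligase of neurofilament light chain, had 0.70 with an SE of 0.26, and the others lay between -0.06 and 0.16.

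**Figure D3:**
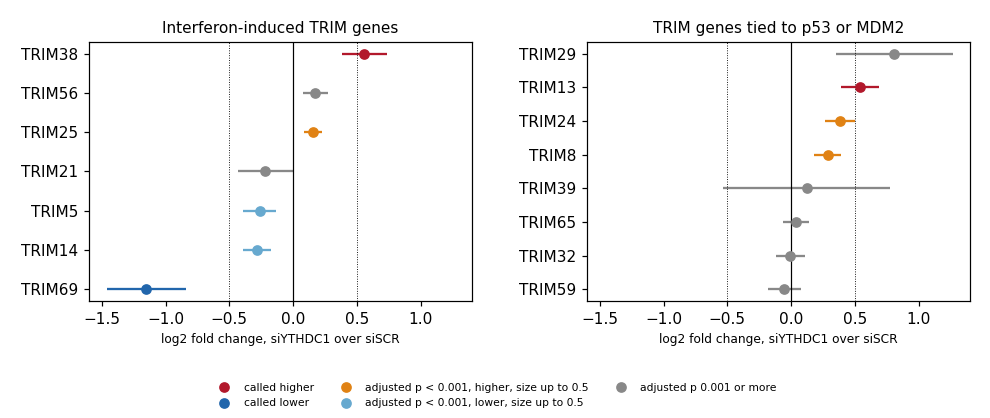
Fold change on the log2 scale, siYTHDC1 over siSCR (x axis), with 95% intervals (bars) and dotted lines at 0.5 in either direction. The left panel holds the 7 measured TRIM genes listed as interferon-induced, and the right panel the 8 listed as tied to p53 or MDM2. Neither list need be complete. The left panel spreads from TRIM38 at 0.56 to TRIM69 at -1.15, and the right panel holds no member past the p threshold below 0.

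Interferon-induced members passed the p threshold in both directions. The list used may not hold all such members. Of its 7 measured members, 1 was called higher (TRIM38) and 1 lower (TRIM69), and at any size 2 were higher and 3 lower, with a median of -0.22. Over all genes 3.05% were called higher and 3.71% lower, and 9.13% and 9.04% passed at any size. The list had a median count of 455, and among all genes with a mean of at least 100 the shares at any size were 16.4% and 15.9%. With 7 members these counts are a description only. TRIM25 and TRIM38 passed as higher, and TRIM69, TRIM14 and TRIM5 as lower. TRIM21, the cytosolic antibody receptor, had -0.22 (SE 0.11, adjusted p = 0.12), and TRIM56, known for its part in sensing of cytosolic nucleic acid, had 0.17 (SE 0.05, adjusted p = 0.0026).

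A list of 8 members tied to p53 or MDM2 was examined, which may not hold all such members. Of these 8, 1 was called higher (TRIM13) and 0 lower, and TRIM13, TRIM24 and TRIM8 passed the p threshold as higher at any size, with a list median of 0.21. Over all genes 3.05% were called higher and 3.71% lower, and 9.13% and 9.04% passed at any size. At an unadjusted p under 0.05, 4 of the 8 members were higher and 0 lower, against 20% and 19.4% of all genes. The list had a median count of 429. Among all genes with a mean of at least 100, the shares were 30.6% and 28.3% unadjusted, and 16.4% and 15.9% at the p threshold. The direction of action on p53 differs within this list, since TRIM24 is known to promote its degradation and TRIM13 and TRIM8 to stabilise it. TRIM32 (-0.0079, SE 0.06), TRIM59 (-0.05, SE 0.07) and TRIM65 (0.04, SE 0.05) had intervals wholly within 0.5. TRIM59 shared 33.9% of its exonic bases, in part with SMC4 on the opposite strand (mean normalized count 4382), so its reads cannot be assigned with certainty. TRIM39 (0.12) had the wide SE of 0.33 and 44.7% of its exonic bases shared, in part with the read-through TRIM39-RPP21.

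Interferon-induced genes commonly carry an interferon-stimulated response element (ISRE) near the start. The letters GAAA, 2 free bases and GAAA again were searched on both strands of RefSeq promoter windows (GRCh38.p14, 250 bases before to 50 after the start). This motif, its reading within the interferon-induced members and the sequences shown were chosen after the fold changes had been seen. A window was at hand for 35 of the 45 members. The matches in the 3 interferon-induced members that were lower at the p threshold are shown because these members differ in size of fold change but share the letters, read on the coding strand as TTTC, 2 bases and TTTC, and set in capitals with 10 bases on either side.
TRIM69 (motif starting 62 bases before the start, window chr15:44736278-44736577, plus strand): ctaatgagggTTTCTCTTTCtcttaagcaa
TRIM14 (26 bases before the start, window chr9:98119173-98119472, minus strand): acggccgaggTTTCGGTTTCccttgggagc
TRIM5 (27 bases before the start, window chr11:5685025-5685324, minus strand): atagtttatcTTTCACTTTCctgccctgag

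Among the 7 listed interferon-induced members, the 4 with the letters (TRIM69, TRIM14, TRIM5 and TRIM21, whose match lies after the start) all had fold changes below 0. The 3 without them (TRIM38, TRIM25 and TRIM56) all had fold changes above 0. TRIM21 and TRIM56 did not pass the p threshold. The list may not hold all interferon-induced members, so the split describes these 7 only. The same split was not seen elsewhere. TRIM44, TRIM26 and TRIM2 held the letters and lay above 0, while TRIM6 lacked them and lay at -0.45. Of all 28 members with a window but without the letters, 10 (35.7%) were below 0. Over all genes with a window 195 of 440 with the letters (44.3%) were below 0, against 5244 of 10622 without them (49.4%). The letters occurred in 3.57% of all 35116 windows. A match is a description of the sequence, not a binding site, and genes with several windows had more chances to match.

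As a check of the label, the translated reference transcripts were searched for the spacing of cysteines and histidines of a RING finger. It was found in 34 of the 45 members. The 11 without it included TRIM14, TRIM29, TRIM44 and TRIM66, which are known to lack the finger, and TRIM9, TRIM36, TRIM37, TRIM41, TRIM46, TRIM52 and TRIM67, which textbooks count as RING proteins. The search allowed 1 range of spacings, so nothing follows from a missing match. Of the 4 RING-less members, TRIM44 passed the p threshold as higher and TRIM14 as lower, with a median of 0.21. All genes gave 9.13% higher and 9.04% lower, with a median of -0.0023. At a mean of at least 100 the shares were 16.4% and 15.9%. With 4 members these counts are a description only.

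Levels were compared between members per kb of merged exons. TRIM47 was highest at 315 mean normalized counts per kb, followed by TRIM65 at 211 and TRIM37 at 171, and TRIM54 was lowest at 0.71. The called members did not stand at the top of this order, with 43.7 for TRIM13, 34.8 for TRIM38 and 7.92 for TRIM69. Differences in mapping and in annotated exon length between genes also enter these levels.

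**Figure D4:**
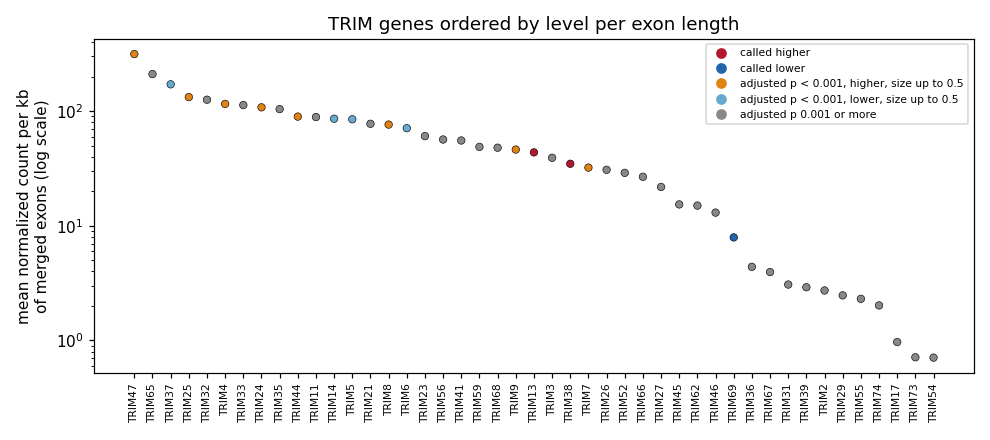
Mean normalized count per kb of merged exons (y axis, log scale) for the 45 TRIM genes, ordered from high to low (x axis). TRIM47 leads at 315 per kb, the genes called higher lie near the middle and TRIM69 at 7.92 per kb lies near the low end.

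Within chromosomal clusters, members that passed the p threshold lay beside members that did not. Of the members, 15 lay in 5 clusters with less than 1 Mb to the next member. On chromosome 11, TRIM6 and TRIM5 passed the p threshold as lower, while their neighbours TRIM21 (-0.22), TRIM68 (0.03) and TRIM3 (0.16) did not pass. TRIM47 on chromosome 17 passed as higher, and TRIM65, with a gap of 1753 bases to it, had 0.04 (SE 0.05). On chromosome 5, TRIM7 passed as higher next to TRIM41 (0.13, SE 0.05) and TRIM52 (0.14, SE 0.09), which did not, and no member of the pairs or triples on chromosomes 1 and 6 passed.

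Among TRIM-family genes that carry other names, the microtubule-associated ligase MID1 was 21.9% lower in siYTHDC1 (-0.36, SE 0.02, adjusted p = 3.2e-51) at a mean normalized count of 5092, above every TRIM-named member, and passed the p threshold but not the limit on the fold change. PML, MID2 and TRIML2 had 0.15, -0.0084 and 0.16 and did not pass. A list of 14 genes of the ubiquitin-conjugating (E2) family, which does not hold the whole family, was measured in full. Which of them work with TRIM proteins was not examined. In the authors' deposited Wald test 0 of 14 were called, against 7.67% of all genes with a mean of at least 100, so with 14 genes this count is a description only. At an unadjusted p under 0.05, 5 were higher and 3 lower, and since all 14 had means above 100, the shares to set beside these are 30.6% and 28.3% of all genes at that level. At any size 3 of them passed the p threshold as higher, UBE2E3 (0.36, SE 0.06), UBE2E1 (0.25, SE 0.04) and UBE2N (0.16, SE 0.04), and 2 as lower, UBE2V2 (-0.31, SE 0.05) and UBE2L3 (-0.22, SE 0.05), where all genes at that level gave 16.4% and 15.9%. UBE2N and UBE2V2 can form a heterodimer that builds ubiquitin chains, and their fold changes had opposite signs. UBE2V1, a relative of UBE2V2 on the same list, lay at -0.013 (SE 0.08) and did not pass.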

How the data were processed

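RNA from 6 siYTHDC1 and 6 siSCR libraries (groups from the labels) was DNase-treated, depleted of ribosomal RNA and made into stranded libraries. Reads were mapped by the authors with STAR (hg19) and assigned to GENCODE genes of an earlier release with HTSeq (strand setting not stated in the sources used here) and the authors then compared the groups in DESeq2 with a term for sequencing batch. Only the resulting table was used. Its signal column, as deposited by the authors, is a gene's normalized count averaged across libraries. The fold change and its SE were deposited on the log2 scale. The Wald statistic is a score the authors deposited, and equalled fold change over SE within 9.14e-05. The p-value was taken as deposited, as was the adjusted p-value, which equalled a Benjamini-Hochberg adjustment over 22564 rows. These are columns of the authors' own comparison, used because the table has no column per library. Depth per library is unknown, so no count model, leave-one-out or batch value could be computed.

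Members and lists were chosen with earlier results of these data known, including some fold changes and adjusted p-values of TRIM genes. Genes of 4 matching symbols are not reported here. Named were called members, members with an adjusted p under 0.001 between 0.3 and 0.5 in size, the 3 nearest the limit on each side and the 3 with the highest mean; others named were singled out after their values were seen. Intervals of 95% used a normal tail. All 45 members matched GRCh37 annotation (GENCODE release 44 mapped back, the build of the files but a later release), which gave coordinates, exon overlap and lengths. RING spacing was searched in translated reference transcripts, in place of the protein table that was planned. The thresholds and the Benjamini-Hochberg adjustment used for the alternatives were tested on simulated fold changes drawn with the deposited SEs. That simulation takes the SEs as given, so it checks the code and not whether the SEs fit these data. The alternatives tried were a p threshold of 0.05, a limit of 1 or none, a test of a change larger than 0.5, means of at least 10 or 100, centred fold changes, a statistic divided by its robust spread, and members without overlapping genes. Software was biopython 1.88, matplotlib 3.10.9, scipy 1.17.1, pandas 2.3.3 and numpy 2.4.6 under Python 3.11.15.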

Additional observations from a re-analysis of the deposited data

How the results depend on the processing

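Against 2 of 45 members called higher and 1 lower, an adjusted p of 0.05 called 5 higher and 1 lower, no limit on the fold change called 10 and 5, and a limit of 1 called 0 and 1. The shares of all genes were 3.05% higher and 3.71% lower in the main setting and 5.25% and 5.80% at an adjusted p of 0.05. They were 9.13% and 9.04% without a limit, and 1.16% and 1.23% at a limit of 1. The test of a change larger than 0.5 and the statistic divided by its robust spread of 2.14 each called 0 higher and 0 lower. They called few genes at all, 0.58% higher and 0.76% lower by the former and 0.75% and 0.90% by the latter, so these zeros lie near the background. A mean of at least 100 left 2 of 30 higher and 0 lower, because TRIM69 lies below it, against 3.28% and 4.41% of all genes at that level. Without members whose span overlaps another gene, 11 remained, with 0 called higher and 1 lower; without those sharing at least 10% of exons (chosen after the data were seen), 1 was called higher. The median of the members stayed between 0.11 and 0.14 in all alternatives run for it, and centring, which shifted all genes by 0.01, turned no member's direction. Over 13 named genes and 78 alternative values, 63 kept their side of the threshold, 8 lost it and 7 gained it, the gains all without a limit on the fold change. Reversals were 0, but apart from centring these settings left the fold change itself as deposited. The 0 was therefore set by the settings and is no sign of stability. SEs of TRIM genes lay between 0.04 and 1.02 on the log2 scale. No paired analysis was possible because the table holds no column per library, and leaving out a replicate was not run for the same reason.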
